A study of Mus musculus with 8 samples.

Results

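The 10 genes described here encode cyclins, cyclin-dependent kinases and regulators of cell division that are used in mitotic spermatogonia, in meiotic spermatocytes or in both. They were *Ccna1*, *Ccna2*, *Ccnb1*, *Ccnb2*, *Cdk1*, *Cdk2*, *Cdc25c*, *Aurkc*, *Plk1* and *Chfr*, taken from the deposited table by gene symbol. All 10 were present among the 55357 genes of the table. All 10 were also among the 20187 genes tested, which had a level of at least 1 TPM, RSEM's length-corrected share of the transcripts of a library, in at least 1 library. The germ cells came from C57BL/6 males killed 15 days after birth, and each mouse gave 1 poly(A) RNA library. Every mouse carried floxed *Mgat2* on both chromosomes (*Mgat2*[F/F]). The 4 controls had no Cre transgene, and 4 mice (*Mgat2*[F/F]:*Stra8*-iCre, termed *Mgat2* cKO) carried a Cre recombinase under the *Stra8* promoter, which is active in spermatogonia. *Mgat2* encodes a GlcNAc-transferase needed for branched complex N-glycans, and the comparison asked how its loss in spermatogonia affected transcripts of germ cells. Somatic cells of the testis do not express this Cre and keep *Mgat2*.

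A cyclin-dependent kinase (CDK) is active when bound to a cyclin, and the cyclins are made and destroyed in turn as a cell passes through its cycle. CDK1 with B-type cyclins drives entry into M phase, CDK2 also holds telomeres and marks crossovers in meiotic prophase, and cyclin A1 is made in male germ cells from late prophase, where it is needed for the first meiotic division. At 15 days the first wave of spermatogenesis has entered meiotic prophase, and the meiotic divisions have not yet taken place in most tubules.

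The promoters of several of these genes are known to carry CCAAT boxes, short elements bound by NF-Y. RefSeq promoter sequence, on mouse build GRCm38.p6, was matched for 8 of the 10 genes, all but *Ccna2* and *Cdc25c*. Within the 250 bases before the RefSeq gene start, CCAAT was present on either strand in 7 of the 8, all but *Aurkc*, compared with 33.8% of the 32851 promoters in the same table. The E2F letters GGCGGG or GCGGGA, searched on both strands, were also present in 7 of the 8, all but *Ccnb2*, compared with 35.7% of all promoters. TTTGAA or TTCGAA, the letters of the CHR element that often accompanies CCAAT boxes in genes of G2 and M phase, were found in *Ccnb2* and *Cdk1*, 2 of the 8, and in 17.1% of all promoters. GTTGCC, part of the site of RFX factors, was found in *Chfr* alone, 1 of the 8, and in 10.4% of all promoters. The MYB core AACGG was found in 0 of the 8 and in 14.5% of all promoters. The E2F letter sets share bases in GGCGGGA, and none of the letter sets contains another. The 30 bases around the CCAAT nearest to the start are shown for both B-type cyclins, whose fitted fold changes had opposite signs without passing the edgeR test, for *Ccna1*, which varied most between libraries, and for *Chfr*, the gene with the smallest p of the 10. Capitals mark CCAAT, or ATTGG where the box is on the other strand, and each run is written 5′ to 3′ on the strand of the gene.
*Ccnb1* (chr13:100786536-100786565, reverse strand): gccacgaactggCCAATgaggagcgagcgg
*Ccnb2* (chr9:70421558-70421587, reverse strand): gcgtgcgtctacCCAATagtgcgtcagcgg
*Ccna1* (chr3:55055145-55055174, reverse strand): gggtggccgctgATTGGctgattcaacaga
*Chfr* (chr5:110135792-110135821, forward strand): cacggccgccagCCAATcacagggcgtacc
A match describes letters in this window and is not a measured binding site. For 7 of the 8 genes, all but *Plk1*, GENCODE release M39 has transcripts that begin upstream of the RefSeq start.

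Expected counts summed to between 12584726 and 15907505 per control library and between 14069373 and 15572196 per cKO library, so that a detection floor of 3 counts was worth 0.19 to 0.234 CPM, the unit of counts scaled to the size of the library. This floor covers counting error only. The targeted gene, *Mgat2*, ranged from 31.8 to 69.8 CPM in control germ cells (mean 56.4) and from 16.0 to 37.6 CPM in cKO germ cells (mean 27.2). Its ranges overlapped, and the log2 fold change was -1.05 (SE 0.36, adjusted p = 0.47, edgeR). The summed TPM of 8 pachytene markers was 2850, 868, 1270 and 680 in controls 1 to 4 and 905, 285, 362 and 258 in cKO 1 to 4, so that replicate 1 was the highest library of each genotype. Of these 8 markers 7 had a lower mean in cKO, with a median log2 fold change of -1.68. EdgeR called 0, with 3 at an unadjusted p under 0.05 (8.9% of all genes tested), while DESeq2 called 1 (1.5% of all genes). The summed levels of the other germ cell lists overlapped between genotypes: 657 to 773 against 687 to 823 TPM for 8 proliferation genes, 901 to 1070 against 1020 to 1250 TPM for 10 spermatogonial genes and 871 to 1500 against 905 to 1200 TPM for 8 genes of leptotene and zygotene. Of the proliferation genes, 7 of 8 had a higher fitted level in cKO, with a median log2 fold change of 0.15. Of the spermatogonial genes it was 8 of 10, with a median of 0.18. Of the leptotene and zygotene genes it was 3 of 8, with a median of -0.08. The median over all genes tested was 0.01, and edgeR called 0 genes in these lists. Spermatid markers summed to 20.5 to 55.9 TPM in control and 16.4 to 28.0 TPM in cKO. The highest of the 9 was *Dbil5*, a marker of round spermatids in the study, at 21.6 TPM in control and 10.2 TPM in cKO. *Prm1* and *Tnp2* were at 0 in all 8 libraries. Of the 5 spermatid markers tested, 4 had a lower and 1 a higher fitted level in cKO, and edgeR called 0. Sertoli cell markers summed to 5340 to 6620 TPM in control and 5560 to 6630 TPM in cKO. Most of this was *Clu*, with means of 4160 TPM in control and 4350 TPM in cKO. Abundant genes weigh most in such sums. *Uchl1* was at 549 and 641 TPM among the spermatogonial genes, and *Meig1* at 570 and 214 TPM among the pachytene markers. The 5 Leydig markers summed to 35.2 to 87.7 against 48.3 to 71.9 TPM, 8 peritubular, vascular and macrophage markers to 313 to 432 against 292 to 555 TPM, and 4 globin genes to 55.8 to 152 against 79.3 to 199 TPM. In bulk RNA, fewer cells of a type and less RNA per cell cannot be told apart.

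**Figure D1:**
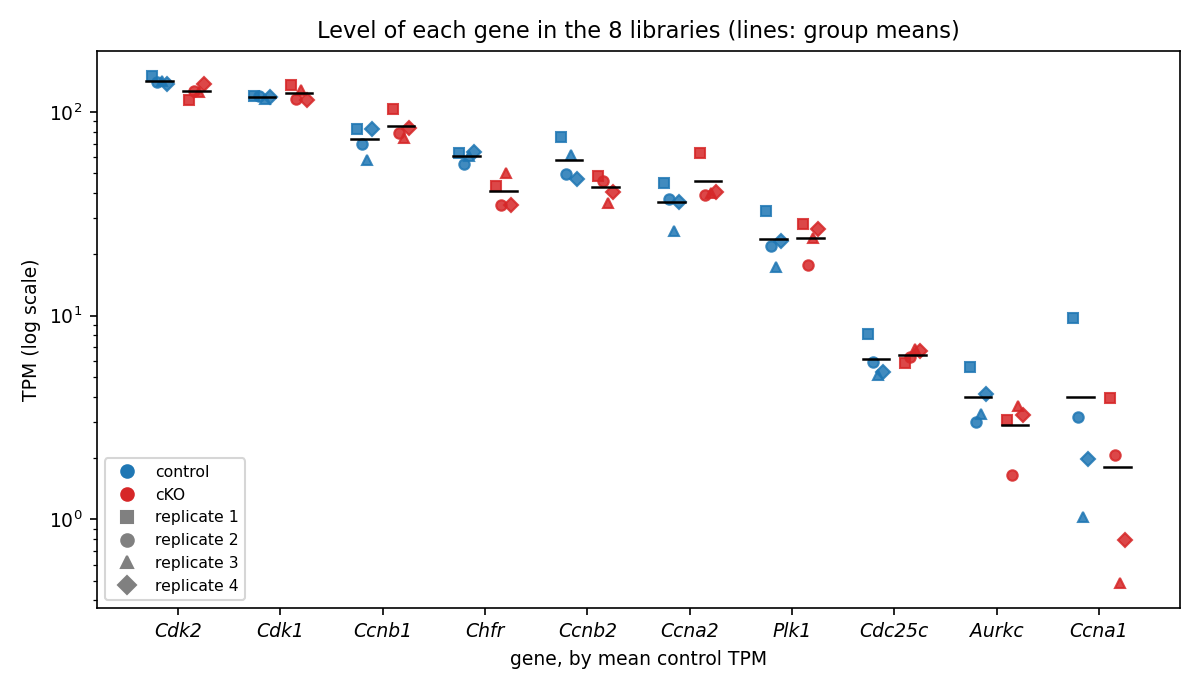
Level of each of the 10 genes in TPM (log axis) in the 4 control (blue) and 4 cKO (red) libraries, with genes ordered by mean control level, the marker shape giving the replicate and black lines giving group means. *Cdk2* and *Cdk1* are highest, *Ccna1* is lowest and most spread, and *Chfr* is the gene whose red points all lie below its blue points.

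In control germ cells the 10 genes covered a wide range of levels. TPM corrects for transcript length, so levels can be compared between genes on this scale. *Cdk2* was highest at 142 ± 5.78 TPM (SD, n = 4), followed by *Cdk1* at 119 ± 2.12, *Ccnb1* at 73.3 ± 11.8, *Chfr* at 60.6 ± 3.61, *Ccnb2* at 58.4 ± 13.1, *Ccna2* at 36.0 ± 7.72 and *Plk1* at 23.8 ± 6.47 TPM. The remaining genes were much lower, with *Cdc25c* at 6.13 ± 1.39, *Aurkc* at 4.0 ± 1.17 and *Ccna1* at 3.98 ± 3.93 TPM. Among neighbours in this order, the control ranges overlapped for *Ccnb1* and *Chfr*, *Chfr* and *Ccnb2*, *Ccna2* and *Plk1*, *Cdc25c* and *Aurkc*, and *Aurkc* and *Ccna1*. They did not overlap for *Cdk2* and *Cdk1*, *Cdk1* and *Ccnb1*, *Ccnb2* and *Ccna2*, or *Plk1* and *Cdc25c*. Ordered by mean cKO level, *Ccna2* took rank 4 instead of 6, *Ccnb2* stayed at 5 and *Chfr* took 6 instead of 4, while the other genes kept their places.

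Between genotypes, the 10 genes were divided in direction, with 5 having a lower and 5 a higher fitted level in cKO and a median log2 fold change of -0.03, beside 0.01 over all genes tested. EdgeR's quasi-likelihood test called 0 of the 10 at an adjusted p under 0.05, and it called 0.0396% of all genes tested, which is 8 genes. At an unadjusted p under 0.05 it found 2 of the 10, *Chfr* and *Ccnb2*, both lower in cKO, against 8.9% of all genes. DESeq2 called 1 of the 10, *Chfr*, against 1.5% of all genes, and limma-voom called 0 of the 10 and 0 genes in all. With replicate 1 of both genotypes left out, edgeR called 2 of the 10, *Chfr* lower and *Ccna2* higher, against 4.24% of all genes. Every cKO library was below every control library in 1 of the 10, *Chfr*, against 3.03% of all genes tested. These are counts of 1 or 2 genes. The p-values set the difference between genotypes against the spread between mice with 1 library each, so differences between mice and between library preparations cannot be told apart.

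**Figure D2:**
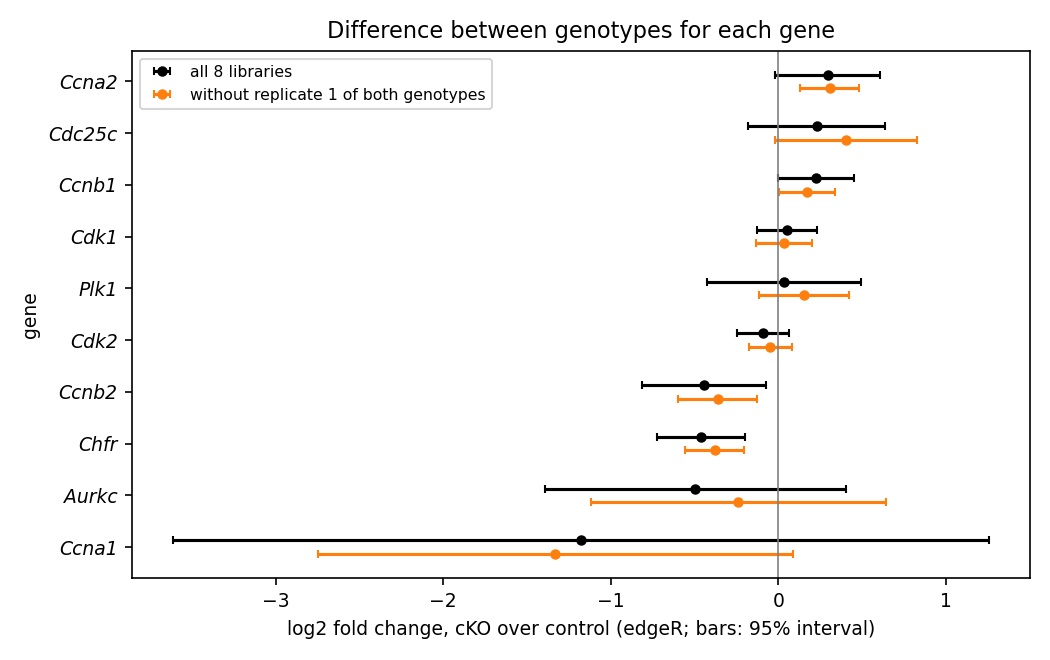
Log2 fold change of each gene, cKO over control, from edgeR with its 95% interval, for all 8 libraries (black) and without replicate 1 of both genotypes (orange). With all libraries the intervals of *Chfr* (-0.73 to -0.20) and *Ccnb2* (-0.81 to -0.07) lie below 0, and that of *Ccna1* (-3.61 to 1.26) is the widest.

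The A-type cyclins were represented by the germ cell gene *Ccna1* and by *Ccna2*, the form used by dividing cells in general. *Ccna1* (ENSMUSG00000027793, chr3:54952890-54963088 on GRCm39, reverse strand) was low outside replicate 1. Its rounded counts were 100, 16, 15 and 12 in controls 1 to 4 and 47, 11, 2 and 4 in cKO 1 to 4, so that cKO 3 was below the floor of 3 counts. In TPM it was at 9.72, 3.18, 1.03 and 1.98 in control and 3.93, 2.06, 0.49 and 0.79 in cKO germ cells. Replicate 1 was the highest library in each genotype, at 6.97 and 8.25 times the mean CPM of the other 3 libraries, and the genotypes overlapped. On the CPM scale, means were 2.43 ± 2.91 in control and 1.06 ± 1.39 in cKO (SD, n = 4), and 3 of the 4 cKO libraries were below the lowest control. The log2 fold change of -1.18 (SE 1.05, 95% interval -3.61 to 1.26, adjusted p = 0.77, edgeR) could not be told from 0 given the spread between libraries. It was 0.14 without control 1 and -2.64 without cKO 1. The same replicate 1 libraries had the highest summed pachytene markers, and the part of these in the level of *Ccna1* was not tested.

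*Ccna2* (ENSMUSG00000027715, chr3:36619014-36626299 on GRCm39, reverse strand), needed for S phase and entry into mitosis, was well expressed. It was at 44.6, 37.2, 25.9 and 36.3 TPM in controls 1 to 4 and at 63.0, 38.9, 40.1 and 40.3 TPM in cKO 1 to 4. The cKO 1 library stood above the rest, while the other 3 cKO libraries lay within the control range. Mean normalized values were 51.2 ± 9.59 for control and 62.8 ± 10.2 CPM for cKO (SD, n = 4), a log2 fold change of 0.29 (SE 0.14, 95% interval -0.02 to 0.61, adjusted p = 0.59, edgeR). It was 0.17 without cKO 1 (adjusted p = 0.60, edgeR), 0.43 without control 1 (adjusted p = 0.38, edgeR) and 0.31 without both (adjusted p = 0.031, edgeR). The libraries were not stranded, and 17.5% of the exon bases of *Ccna2* are also exons of *Exosc9* on the other strand, which was at 37.1 CPM, so reads in the overlap cannot be assigned with certainty. The summed proliferation markers were likewise highest in cKO 1, at 823 TPM, and their part in the level of *Ccna2* was not tested.

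Both B-type cyclins are partners of CDK1, and the fitted fold changes of their transcripts had opposite signs, with neither called by edgeR. *Ccnb1* (ENSMUSG00000041431, chr13:100915153-100923116 on GRCm39, reverse strand), the cyclin essential for mitosis, was at 82.8, 69.9, 58.0 and 82.3 TPM in controls 1 to 4 and at 103, 79.0, 74.7 and 83.6 TPM in cKO 1 to 4. Only cKO 1 and cKO 4 exceeded the highest control on this scale, whereas 3 of the 4 cKO libraries did so in CPM. Means were 66.4 ± 7.03 CPM in control and 77.4 ± 9.2 CPM in cKO (SD, n = 4), with a log2 fold change of 0.22 (SE 0.10, 95% interval 0.00 to 0.45, adjusted p = 0.57, edgeR), which was 0.14 without cKO 1. *Ccnb2* (ENSMUSG00000032218, chr9:70314966-70328874 on GRCm39, reverse strand), which can stand in for cyclin B1 in meiosis, was at 75.5, 49.6, 61.5 and 46.9 TPM in controls and at 48.6, 45.8, 35.8 and 40.3 TPM in cKO. Only cKO 1 exceeded the lowest control on this scale. Control germ cells had 46.2 ± 11.4 CPM and cKO germ cells 34.0 ± 4.88 CPM (SD, n = 4), which is a 1.36-fold higher mean in control and a log2 fold change of -0.44 (SE 0.17, 95% interval -0.81 to -0.07). Its unadjusted p was 0.023 and its adjusted p 0.48 by edgeR, and the log2 fold change ran from -0.54 to -0.28 as single libraries were left out, the latter without control 1 (adjusted p = 0.72, edgeR). Without replicate 1 of both genotypes it was -0.36 (adjusted p = 0.079, edgeR).

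The ratio of the related transcripts within a library does not depend on the scaling between libraries. *Ccnb2* to *Ccnb1*, in TPM, was 0.912, 0.709, 1.06 and 0.57 in controls 1 to 4 and 0.473, 0.579, 0.479 and 0.482 in cKO 1 to 4. The mean was 0.813 ± 0.217 in control and 0.503 ± 0.0506 in cKO (SD, n = 4), and 3 of the 4 cKO libraries were below the lowest control. From CPM the means were 0.701 ± 0.177 and 0.439 ± 0.0403, and all 4 cKO libraries were below the lowest control. *Ccna1* to *Ccna2* was 0.218, 0.0855, 0.0398 and 0.0546 in controls and 0.0624, 0.053, 0.0122 and 0.0196 in cKO, with control 1 far above all other libraries. On this scale 2 of the 4 cKO libraries were below the lowest control. From CPM the ratio was 0.105, 0.0211, 0.0226 and 0.0191 in controls and 0.04, 0.0123, 0.00242 and 0.00493 in cKO, with 3 of the 4 cKO libraries below the lowest control. *Cdk1* to *Cdk2* was 0.8, 0.864, 0.815 and 0.869 in controls and 1.19, 0.912, 1.02 and 0.842 in cKO, so that cKO libraries other than cKO 4 were above the controls on the TPM scale. From CPM it was 0.356, 0.343, 0.327 and 0.348 in controls and 0.449, 0.352, 0.405 and 0.322 in cKO, where cKO 1 and cKO 3 were above the controls, cKO 2 was among them and cKO 4 was below them. The ratios are descriptions and were not tested.

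**Figure D3:**
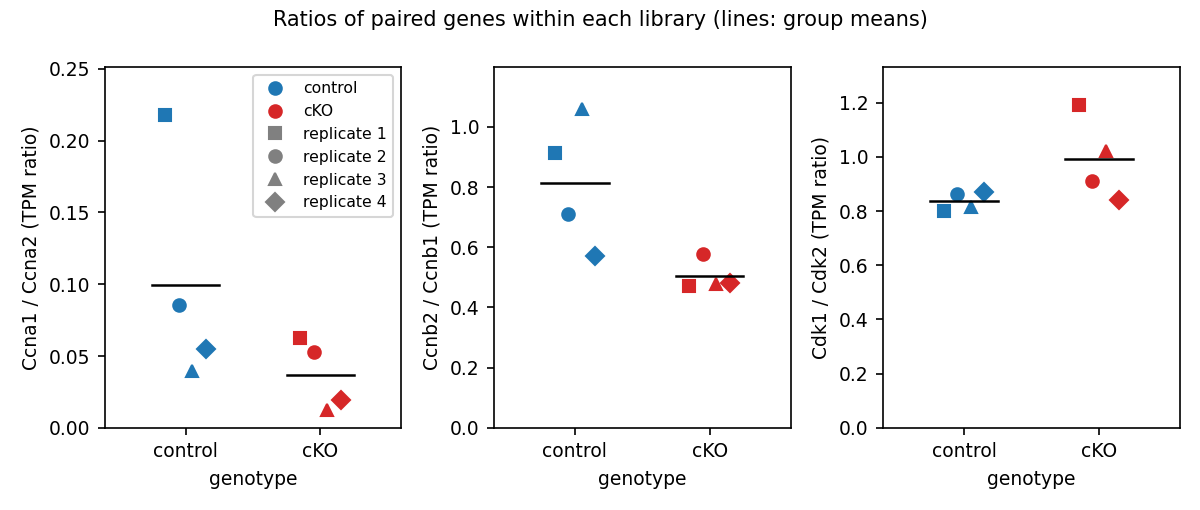
Ratios of TPM values within each library for *Ccna1* to *Ccna2*, *Ccnb2* to *Ccnb1* and *Cdk1* to *Cdk2*, with control in blue, cKO in red, marker shapes for replicates and black lines for group means. The *Ccnb2* to *Ccnb1* ratio is 0.57 to 1.06 in control and 0.473 to 0.579 in cKO, and the highest *Ccna1* to *Ccna2* ratio, 0.218, is that of control 1.

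By their coefficients of variation in CPM, the kinase subunits were the most evenly expressed of the 10. *Cdk1* (ENSMUSG00000019942, chr10:69170976-69236595 on GRCm39, reverse strand) was at 120, 120, 116 and 119 TPM in controls 1 to 4 and at 136, 116, 128 and 115 TPM in cKO 1 to 4. Its coefficient of variation was 2.57% in control and 7.81% in cKO, and the genotypes overlapped. The log2 fold change of 0.05 had a 95% interval of -0.13 to 0.23 (SE 0.08, adjusted p = 0.89, edgeR). *Cdk2* (ENSMUSG00000025358, chr10:128533796-128540963 on GRCm39, reverse strand), the partner of E- and A-type cyclins that also acts on meiotic chromosomes, was at 150, 140, 142 and 137 TPM in controls and at 115, 127, 125 and 137 TPM in cKO. In CPM 3 of the 4 cKO libraries were below the lowest control, but cKO 4 lay within the control range. Its log2 fold change was -0.09 (SE 0.07, 95% interval -0.25 to 0.06, adjusted p = 0.72, edgeR).

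*Cdc25c* (ENSMUSG00000044201, chr18:34866031-34885472 on GRCm39, reverse strand) encodes a phosphatase that removes inhibitory phosphates from CDK1. It was expressed at a low level in both genotypes. In CPM it was at 7.13, 5.83, 5.24 and 5.62 in controls 1 to 4 and at 5.84, 6.92, 7.82 and 7.38 in cKO 1 to 4. Control 1 was the highest control and cKO 1 the lowest cKO library, and the genotypes overlapped. The log2 fold change was 0.23 (SE 0.19, 95% interval -0.18 to 0.64, adjusted p = 0.73, edgeR). Exons of 2010110K18Rik, a lncRNA, cover 19.0% of the exon bases of *Cdc25c* on the other strand, and those of *Rpl27rt* cover 12.4%, so its counts are uncertain to that extent.

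*Aurkc* (ENSMUSG00000070837, chr7:6998299-7006097 on GRCm39, forward strand), the Aurora kinase used in meiosis, was among the lowest of the 10, though above the floor of 3 counts in every library. Its rounded counts were 56, 23, 23 and 27 in controls 1 to 4 and 30, 14, 31 and 17 in cKO 1 to 4. In TPM it was at 5.59, 2.99, 3.28 and 4.13 in controls and at 3.09, 1.66, 3.61 and 3.24 in cKO. Control 1 was the highest library and cKO 2 the lowest, with the others overlapping. The log2 fold change of -0.50 (SE 0.41, 95% interval -1.39 to 0.40, adjusted p = 0.73, edgeR) was -0.10 without control 1. *Aurkb*, the Aurora kinase of mitosis, was at 18.5 TPM in control and 19.1 TPM in cKO, and the TPM ratio of *Aurkc* to *Aurkb* was 0.243, 0.179, 0.217 and 0.214 in controls and 0.123, 0.106, 0.214 and 0.174 in cKO. *Plk1* (ENSMUSG00000030867, chr7:121758646-121769108 on GRCm39, forward strand), the polo-like kinase that acts on centrosomes, kinetochores and the synaptonemal complex, was at 32.7, 22.0, 17.3 and 23.2 TPM in controls and at 28.2, 17.8, 24.0 and 26.7 TPM in cKO. The values of the genotypes were interleaved. Its log2 fold change was 0.03 (SE 0.21, 95% interval -0.42 to 0.49, adjusted p = 0.98, edgeR), and it took either sign as single libraries were left out, from -0.09 to 0.25.

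*Chfr* (ENSMUSG00000014668, chr5:110283620-110323336 on GRCm39, forward strand) encodes a ubiquitin ligase of an early mitotic checkpoint that delays chromosome condensation when microtubules are disturbed. It had the smallest p of the 10 in the comparison of genotypes. It was at 62.8, 55.4, 60.8 and 63.3 TPM in controls 1 to 4 and at 43.4, 34.8, 50.2 and 35.0 TPM in cKO 1 to 4. Each cKO library was below each control on the TPM and the CPM scale. Normalized values were 94.0, 63.1, 76.8 and 69.1 CPM in controls and 59.1, 48.8, 59.0 and 53.2 CPM in cKO, with means of 75.8 ± 13.4 and 55.0 ± 5.01 CPM (SD, n = 4). The mean was 1.38-fold higher in control, a log2 fold change of -0.46 (SE 0.12, 95% interval -0.73 to -0.20). The unadjusted p was 0.0026 and the adjusted p 0.32 by edgeR, whereas DESeq2 gave a log2 fold change of -0.47 and an adjusted p of 0.048. Without replicate 1 of both genotypes the log2 fold change was -0.38 (adjusted p = 0.0047, edgeR), and it ran from -0.54 to -0.34 when each library was left out in turn. The study picked *Chfr* out from these same libraries, so its place among the 10 is not independent of its values.

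The genes nearest in pattern were sought for *Ccna1*, the most variable of the 10, and for *Chfr*, by the root mean square difference of log2 CPM, centred on the mean of each gene, over the 8 libraries. Candidates were protein-coding genes with a mean of at least 5 CPM. They were ranked on the same 8 libraries, so likeness between replicates and genotypes follows from the choice and is not a separate observation. For *Ccna1*, whose own spread was 1.39 on this scale, they were *Ssmem1* (0.445), *Haspin* (0.479) and *Dynlt2a3* (0.491) among 11523 genes. *Haspin* encodes a histone H3 kinase of dividing cells, and was at 45.9, 9.5, 13.9 and 8.42 TPM in controls 1 to 4 and at 20.0, 5.46, 3.7 and 6.01 TPM in cKO 1 to 4, with replicate 1 highest in both genotypes, as for *Ccna1*. For *Chfr*, with a spread of 0.283, near patterns among 11522 genes were those of *Thoc7* (0.0657) and *Pttg1* (0.075). *Pttg1* encodes securin, the inhibitor of separase, and was at 90.6 TPM in control and 71.1 TPM in cKO, a log2 fold change of -0.36 (adjusted p = 0.45, edgeR).

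Genes that act with the 10 were described as lists, in which edgeR called 0 genes. The 12 other cyclins and CDKs of the cell cycle had a median log2 fold change of 0.14, with 10 of 12 higher in cKO and 1 at an unadjusted p under 0.05 (8.9% of all genes tested). That gene was *Cdk6*, a kinase of G1 phase, at 17.2 TPM in control and 21.4 TPM in cKO (log2 fold change 0.25, adjusted p = 0.54, edgeR). *Ccnb3*, a B-type cyclin of meiotic prophase, had a log2 fold change of 0.35 (adjusted p = 0.59, edgeR). *Cdk4*, the partner of D-type cyclins, was the most abundant at 159 and 161 TPM.

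Of 14 activators and inhibitors of CDK1 and CDK2, 7 had lower and 7 higher fitted levels in cKO, with a median of 0.01. Of these, 2 of the lower and 1 of the higher genes were at an unadjusted p under 0.05 (8.9% of all genes tested). *Pkmyt1*, a membrane-bound kinase that keeps CDK1 inactive by phosphorylation, was at 45.6, 38.4, 47.1 and 31.2 TPM in controls 1 to 4 and at 24.9, 21.1, 20.2 and 23.6 TPM in cKO 1 to 4. Each cKO library was below each control, and the log2 fold change was -0.86 (SE 0.14, adjusted p = 0.064 by edgeR and 3.8e-05 by DESeq2). It was called by DESeq2 and, without replicate 1 of both genotypes, by edgeR (log2 fold change -0.84, adjusted p = 4.1e-04). *Cdkn1c*, the CDK inhibitor p57, was higher in each cKO library than in each control in CPM, though not in TPM, with a log2 fold change of 0.58 (SE 0.16, adjusted p = 0.34 by edgeR and 0.047 by DESeq2). *Cks2*, a small CDK subunit needed in meiosis, was the most abundant, at 320 TPM in control and 268 TPM in cKO (log2 fold change -0.24, adjusted p = 0.57, edgeR).

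The 17 other division kinases and spindle checkpoint genes had a median log2 fold change of -0.10, and 0 were at an unadjusted p under 0.05 by edgeR (8.9% of all genes tested). *Nek2*, a centrosome kinase, was at 66.5 TPM in control and 45.8 TPM in cKO, with a log2 fold change of -0.48 (adjusted p = 0.59, and 0.016 without replicate 1 of both genotypes, edgeR). The checkpoint gene *Bub3* had a log2 fold change of -0.16 (adjusted p = 0.60, edgeR). Its partner *Bub1* was at 85.5 TPM in control and 90.3 TPM in cKO. *Bub1* had the highest mean of the list over all 8 libraries, though *Cdca8* was higher in control, at 91.4 TPM, and lower in cKO, at 82.4 TPM. The anaphase-promoting complex and its regulators, 17 genes, had a median of 0.03, with 2 lower and 1 higher in cKO at an unadjusted p under 0.05 (8.9% of all genes tested). *Fbxo43*, an inhibitor of that complex in meiosis, was at 17.6, 16.6, 16.9 and 4.68 TPM in controls 1 to 4 and at 3.71, 3.59, 3.19 and 9.13 TPM in cKO 1 to 4. In TPM control 4 was below cKO 4, whereas all cKO libraries were below all controls in CPM, with means of 13.7 ± 6.06 for control and 5.79 ± 0.39 CPM for cKO (SD, n = 4). Its log2 fold change was -1.24 (SE 0.28, adjusted p = 0.23 by edgeR and 0.0059 by DESeq2). The complex subunit *Cdc16* had a log2 fold change of 0.24 (SE 0.08, adjusted p = 0.42, edgeR), with each cKO library above each control in CPM, though not in TPM. *Ube2s*, which extends the ubiquitin chains, was the most abundant at 492 and 430 TPM.

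All 8 meiotic regulators tied to cyclins and CDK1 had a lower fitted level in cKO, with a median log2 fold change of -0.43. EdgeR called 0 of them, 5 were at an unadjusted p under 0.05 (8.9% of all genes tested), DESeq2 called 2 (1.5% of all genes), and in 4 each cKO library was below each control in CPM (3.03% of all genes). The list was chosen with earlier results of these data known, so these counts are descriptions and do not measure enrichment. *Cntd1*, a cyclin-like protein needed to complete crossovers, was at 64.0, 60.5, 78.3 and 49.6 TPM in controls 1 to 4 and at 46.3, 37.1, 43.2 and 40.3 TPM in cKO 1 to 4, with a log2 fold change of -0.60 (SE 0.14, adjusted p = 0.28 by edgeR and 0.014 by DESeq2). *Eif4g3*, a translation factor that spermatocytes need to leave prophase, was at 103 and 77.1 TPM (log2 fold change -0.32, adjusted p = 0.34, edgeR). *Hspa2*, the chaperone of spermatocytes that assembles CDK1 with cyclin B1, was the most abundant, at 535, 255, 295 and 209 TPM in controls and 226, 147, 146 and 139 TPM in cKO. Its log2 fold change was -0.97 (SE 0.35, adjusted p = 0.52, edgeR), and replicate 1 was again highest in both genotypes. The pachytene markers, with a median log2 fold change of -1.68, were also lower in cKO, and their part in the levels of this list was not tested.

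**Figure D4:**
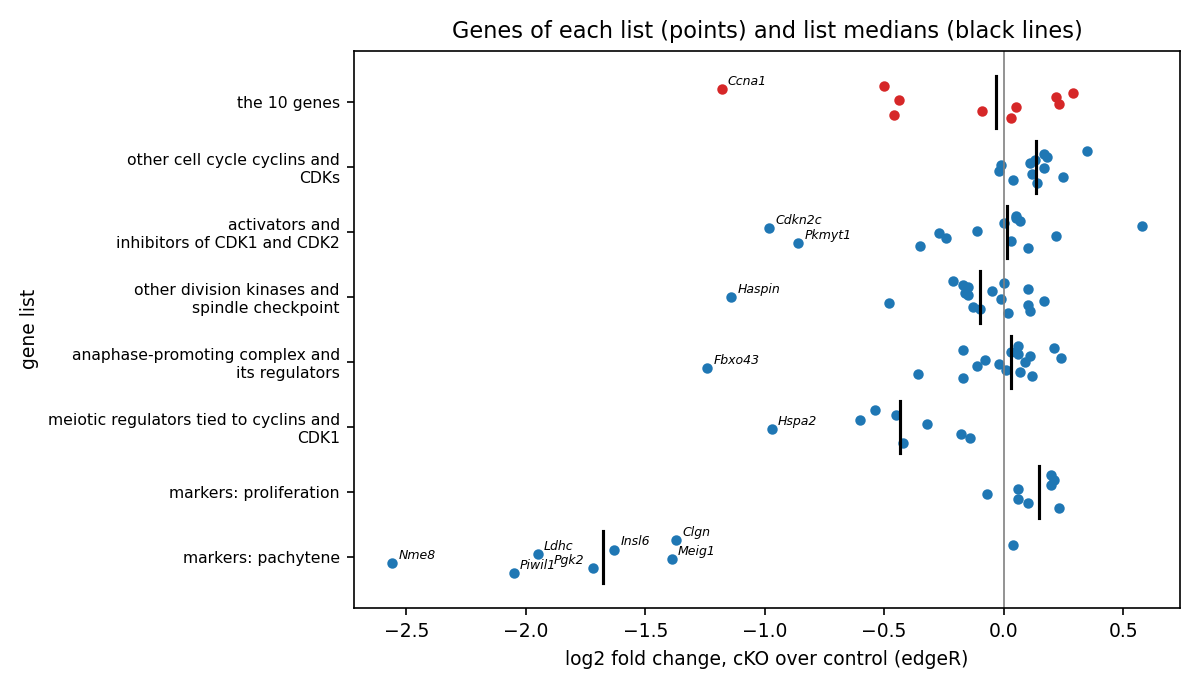
Log2 fold changes, cKO over control (edgeR), of the genes of each list (points) with the list median (black line), and the names of genes below -0.8. The 10 genes (red) have a median of -0.03, the meiotic regulators of -0.43 and the pachytene markers of -1.68.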

How the data were processed

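Poly(A) RNA of germ cells from 4 control and 4 *Mgat2* cKO mice was measured in 8 libraries that were not stranded. The authors aligned reads to GRCm39 with STAR 2.7.9a and deposited RSEM 1.3.3 expected counts per gene, with no filter or scaling between samples. The TPM values deposited beside them were scaled within each library for length and depth, so they also move with the isoform lengths that RSEM assigned. No deposited column came from another sample, and the authors' DESeq2 1.38.3 comparisons were not used here.

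Expected counts were rounded, since 15.2% were not whole. Genes with at least 1 TPM in at least 1 library were kept. Genotypes were compared with edgeR 4.0.16 (TMM, robust quasi-likelihood F-test, no covariate) in R 4.3.3, with Benjamini-Hochberg adjustment over all 20187 genes and a threshold of 0.05, and CPM were scaled by TMM. Called means past that threshold. Alternatives were DESeq2 1.42.0, its size factors in edgeR, limma-voom (limma 3.58.1), limma-trend on log2(TPM + 1) and log2(TPM + 0.1), no filter, filterByExpr, the replicate number as a block, and libraries left out. The scripts were tested on simulated data. Tables were made with Python 3.11.15.

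The 10 genes and the lists were chosen with earlier results of these data known. Named genes are the 10, *Mgat2*, the genes called in each list (where none was, the 2 with the smallest p) with its most abundant gene, the 3 nearest patterns to *Ccna1* and *Chfr* (1 of them is not reported here), and marker genes at 0. *Aurkb*, *Exosc9* and the other overlapping genes, *Cdkn2c* and *Dbil5* were named after values were seen. Gene positions are from GENCODE M39, and promoters from RefSeq.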

Additional observations from a re-analysis of the deposited data

Results flagged for a closer look

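In each genotype, the highest and the lowest of the 4 libraries were compared with the other 3 by Dixon's ratio of gap to range, for each of the 10 genes. Of these 20 groups, 2 exceeded the 95% critical value for 4 samples, and chance alone flags about 1 group in 20. *Ccna1* in control 1 was at 6.79 CPM, against 0.937 to 1.04 CPM in the other controls (ratio 0.983). *Ccna2* in cKO 1 was at 78.0 CPM, against 57.6 to 57.7 CPM in the other cKO libraries (ratio 0.993). The other 3 cKO values of *Ccna2* lie close together, which raises this ratio. Both libraries carry replicate number 1 and had the highest summed pachytene markers of their genotype, at 2850 and 905 TPM, and the part of this in the 2 values was not tested.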

How the results depend on the processing

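Among the fold changes of the 10 genes under the alternatives, 166 kept their direction and their side of the threshold, 9 moved past it and 5 turned in direction. Of the 10 genes 0 were called by edgeR, also with DESeq2's size factors, without a filter, with filterByExpr, with limma-voom and with limma-trend, and 0 to 0 when each library was left out in turn. DESeq2 called 1 and edgeR without replicate 1 of both genotypes called 2. Over all genes the 8 calls became 302 with DESeq2, 35 without a filter, 0 with filterByExpr, 0 with limma-voom, 0 with limma-trend on either pseudocount, 855 without replicate 1 of both genotypes, and 0 to 32 when each library was left out. The log2 fold change of *Ccna1* ran from -2.64 to 0.14 and turned to 0.14 without control 1, and that of *Plk1* ran from -0.09 to 0.25 and turned to -0.01 without control 2, -0.09 without control 3, -0.06 without cKO 1 and 0.0 without cKO 4. The causes were not tested.

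The same replicate numbers are used for both genotypes. Deviations from the group means correlated between same-numbered libraries at 0.535, 0.145, 0.039 and 0.197 for replicates 1 to 4, and averaged -0.254, -0.007, 0.007 and -0.02 with other numbers. Not every one was over 0.1 and no source states a shared litter or batch, so the numbers were not taken to pair the samples. With the replicate block edgeR called 1464 of the 20187 genes tested. Of the 10 it called 3, *Chfr* (log2 fold change -0.45, adjusted p = 1.2e-04), *Ccna2* (0.30, adjusted p = 0.013) and *Ccnb2* (-0.43, adjusted p = 0.013). A block without replicate 1 of both genotypes, chosen after seeing the data, called 1199 of the 20187 genes and the same 3 of the 10.

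Depth limits *Ccna1*, with 2 to 100 counts per library, and *Aurkc*, with 14 to 56. *Cdc25c* and *Ccna2* share exon bases with genes on the other strand. So do *Chfr* (9.66% of its exon bases, with Gm15787 at 0.797 CPM), *Ccna1* (7.16%), *Plk1* (5.6%), *Cdk2* (3.94% with Gm66040) and *Cdk1* (0.841%). Each group held 4 mice, and levels of RNA do not give levels or activity of the kinases.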

Other observations

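*Cdkn2c*, which encodes the CDK4 and CDK6 inhibitor p18, was at 63.0, 27.2, 33.4 and 25.6 TPM in controls 1 to 4 and at 29.7, 16.9, 17.9 and 17.8 TPM in cKO 1 to 4. Its log2 fold change was -0.98 (SE 0.41, adjusted p = 0.56, edgeR) with all libraries and -0.77 (adjusted p = 3.8e-05, edgeR) without replicate 1 of both genotypes. *Haspin* had a log2 fold change of -1.14 (SE 0.81, adjusted p = 0.71, edgeR), and of -1.06 (adjusted p = 0.0050, edgeR) without these libraries. Both genes were highest in replicate 1 of each genotype, which for *Haspin* follows from its choice as a near pattern of *Ccna1*.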
